A study of Homo sapiens with 24 samples.

Results

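The genes described here carry glucose into the cell and through glycolysis to lactate. They are the glucose transporter SLC2A1 and the enzymes HK2, PFKP, ALDOA, ALDOC, PGK1, ENO1, ENO2, PKM and LDHA. Members were the rows of the count table that carry 1 of these 10 gene symbols, and 10 of 10 were found among 14493 genes, each with 1 row. RNA-seq was performed in SKBR3 cells, a HER2-amplified human breast cancer line, in 24 libraries that formed 8 groups of 3. Untreated cells were collected at day 0 (the proliferative control) and at day 7. The drug groups were collected at day 7, and their labels give a refeed at day 3. The paper's methods say that drug was renewed every 3 days. The labels of the untreated day-7 cells give no refeed. Both ND-646 and TVB-3166 were given at 250 nmol/L, doxorubicin at 10 and alisertib at 500 nmol/L, and palbociclib at 1 and bleomycin at 10 umol/L. ND-646 inhibits acetyl-CoA carboxylase and TVB-3166 inhibits fatty acid synthase, so both block de novo lipogenesis, and the cells they leave are called FASTIS here. Bleomycin breaks DNA, alisertib inhibits Aurora kinase A, doxorubicin poisons topoisomerase II and palbociclib inhibits CDK4/6, and all 4 are established inducers of therapy-induced senescence (TIS). All groups were 1 cell line, both control groups are labelled as untreated rather than vehicle-treated, and the labels do not say whether replicates were separate cultures, so p-values measure the spread between these libraries.

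Glycolysis splits 1 glucose into pyruvate, yields ATP without oxygen and feeds side branches that build nucleotides, serine and glycerol. Cancer cells commonly run it fast even in oxygen, and much of the pyruvate is then reduced to lactate. Several steps have more than 1 gene. HK2, PFKP, ALDOA, PKM and LDHA are the forms usually high in proliferating tumor cells, while ALDOC and ENO2 are best known from brain. The pathway also supplies the citrate from which fatty acids are made, the branch that ND-646 and TVB-3166 block.

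Total counts ranged from 29405121 to 44316330 per library, and counting error was small for all members but ENO2. Levels are CPM, counts scaled to library depth with TMM factors over all 24 libraries, given for replicates 1, 2 and 3 in that order. Of 7 markers of SKBR3 cells 6 were listed, with summed levels of 9941 to 20050 CPM, and CDH1 was not listed. Of 4 leukocyte markers 0 were listed, COL1A1 was the 1 of 5 fibroblast markers listed (6.46 to 15.2 CPM), and VWF and CDH5 were 2 of 3 endothelial markers listed. A gene at 0 in any 1 library is not listed, so an unlisted marker is not shown to be absent. The summed level of VWF and CDH5 was 2.87 to 7.26 CPM in untreated libraries, 6.31 to 14.2 in ND-646, TVB-3166 and alisertib libraries and 27.3 to 47.8 in bleomycin, doxorubicin and palbociclib libraries. Group means of VWF were 0.0993 (ND-646) to 1.10 CPM (doxorubicin), so most of each sum was CDH5. Against day 0, VWF fell with ND-646 (-2.90) and TVB-3166 (-1.66) on the log2 scale, while CDH5 rose (1.215 and 0.75). The part of these markers in the results was not tested. ND-646 libraries agreed least with each other. The lowest correlation of log2 CPM to another ND-646 library was 0.968 for replicates 1 and 3 and 0.971 for replicate 2. Libraries of the other 7 groups had 0.982 or more. These correlations do not single out 1 ND-646 library. Replicate 1 had the highest summed member level of its group (9699 CPM against 6604 and 6875), and results that rest on it are given with and without it.

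The members together took 1.00% to 1.09% of all counts in day-0 libraries, 0.776% to 0.889% in untreated day-7 libraries and 0.562% to 0.762% in the 18 drug libraries. The summed level was 10708 ± 773 CPM (SD, n = 3) in day-0 cells, 8043 ± 630 in untreated day-7 cells, 7726 ± 1714 in ND-646 cells, 7187 ± 585 in TVB-3166 cells and 5827 to 6454 in the other 4 TIS groups. Every drug library lay below every day-0 library. ND-646 replicate 1 reached 9699 CPM against 6604 and 6875 in replicates 2 and 3. Per kilobase of annotated exon, the order in day-0 cells was ENO1 (667 CPM per kb), ALDOA (530), LDHA (348), PKM (167), PGK1 (131), SLC2A1 (75.0), HK2 (34.96), PFKP (25.3), ALDOC (25.1) and ENO2 (0.0578). In a bulk sample, fewer cells and less RNA per cell cannot be told apart, and CPM shows only shares of the RNA.

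The question put by the comparison with day 0 was how transcript levels of TIS cells differ from those of proliferating cells. PFKP, PGK1, ENO1, PKM and LDHA fell in 6 of 6 drug groups, and SLC2A1, HK2, ALDOA and ALDOC split by drug. By edgeR's quasi-likelihood test at an adjusted p under 0.05, ND-646 raised 2 and lowered 5 of 9 members tested, where 37.9% of the 13604 genes tested were called (19.1% higher and 18.8% lower). TVB-3166 raised 3 and lowered 5 of 9, against 55.1% of all genes (27.4% higher, 27.7% lower). Bleomycin raised 2 and lowered 6 of 10, against 49.4% (24.1% higher, 25.3% lower), and alisertib raised 1 and lowered 6 of 10, against 37.3% (17.7% higher, 19.6% lower). Doxorubicin raised 0 and lowered 6 of 10, against 48.4% (23.7% higher, 24.8% lower), with 1 member higher at an unadjusted p under 0.05 and 0 by DESeq2. Palbociclib raised 0 and lowered 6 of 9, against 53.2% (26.0% higher, 27.2% lower), with 1 member higher at an unadjusted p under 0.05 and 1 by DESeq2. The median log2 fold change of the members lay between -0.73 (palbociclib) and -0.47 (bleomycin), and that of all genes between -0.01 and 0.02. The study's cutoffs, a fold of 2 and a raw p of 0.05, were set on DESeq2 results and are applied here to edgeR results. The shares below are therefore not those of the study. By a fold of at least 2 and a raw p under 0.05, the counts were 3 with ND-646 (20.7% of all genes), 2 with TVB-3166 (17.6%), 3 with bleomycin (18.8%), 2 with alisertib (7.90%), 3 with doxorubicin (12.9%) and 2 with palbociclib (16.7%). For PFKP, PGK1, ENO1, PKM and LDHA, 5 of 10 members, all 18 drug libraries lay below all 6 untreated libraries, as they did for 4.50% of the 14493 genes. With library totals alone in place of TMM scaling, the median of all genes moved to between 0.12 and 0.13 with alisertib, doxorubicin and palbociclib, where 2 members were then higher and 5 lower, 1 and 6, and 1 and 6. These 6 comparisons share the 3 day-0 libraries.

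LDHA (NCBI gene 3939, chr11:18416107-18429972 on GRCh37) encodes the lactate dehydrogenase subunit that favors turning pyruvate into lactate. It stood at 2168, 2130 and 1993 CPM in day-0 cells and at 1569, 1353 and 1470 in untreated day-7 cells. It was 1217, 838 and 854 CPM in ND-646 cells and 1146, 1048 and 966 in TVB-3166 cells. The other TIS groups held 973, 688 and 824 (bleomycin), 1079, 1010 and 952 (alisertib), 946, 1043 and 876 (doxorubicin) and 753, 723 and 669 CPM (palbociclib). Every drug library was below every untreated library of either day, and palbociclib cells, at 34.1% of the day-0 mean, were lowest. The log2 fold change against day 0 was -1.55 ± 0.11 (SE) with palbociclib (adjusted p = 3.47e-06), -1.34 ± 0.15 with bleomycin and between -0.99 and -1.13 with the other 4 drugs. In the order of the groups, day-0 cells were separate from untreated day-7 cells and these from all drug groups, and each drug group overlapped the next.

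PKM (NCBI gene 5315, chr15:72491370-72524160) encodes the muscle-type pyruvate kinase, whose M1 and M2 splice forms are summed in these counts. It was 1466, 1504 and 1315 CPM in day-0 cells and 1209, 897 and 1023 in untreated day-7 cells. ND-646 libraries held 616, 497 and 513 CPM and TVB-3166 libraries 634, 541 and 557. Bleomycin libraries held 755, 529 and 677 CPM, while alisertib, doxorubicin and palbociclib libraries lay between 723 and 846. All drug libraries were again below all untreated libraries, and the lowest means were those of FASTIS cells. PKM fell by 1.41 ± 0.17 on the log2 scale with ND-646 (adjusted p = 4e-04) and by 1.30 ± 0.12 with TVB-3166 (adjusted p = 5.67e-06), against 0.81 to 1.12 in the other 4 groups.

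ENO1 (NCBI gene 2023, chr1:8921059-8939249) encodes the widely expressed enolase and had the highest level per kilobase of the members in day-0 cells. It was 3924, 3455 and 3058 CPM in day-0 cells, 2852, 2616 and 2740 in untreated day-7 cells and between 1643 and 2477 in the 18 drug libraries. All drug libraries lay below all untreated ones. The fall against day 0 ranged from -0.71 ± 0.12 with alisertib to -1.03 ± 0.13 with palbociclib (adjusted p = 8.85e-05). PGK1 (NCBI gene 5230, chrX:77166236-77384792), which makes the first ATP of the pathway, was 664, 753 and 712 CPM in day-0 cells, 670, 560 and 608 in untreated day-7 cells and 357 to 555 in drug libraries. Its log2 fold change against day 0 lay between -0.81 ± 0.12 (bleomycin, adjusted p = 0.000561) and -0.52 ± 0.10 (alisertib). PFKP (NCBI gene 5214, chr10:3108525-3179910), the platelet form of phosphofructokinase at the committed step, was 163, 228 and 199 CPM in day-0 cells and 186, 193 and 204 in untreated day-7 cells. Drug libraries held 102 to 148 CPM. PFKP fell by 0.79 ± 0.12 with TVB-3166 (adjusted p = 0.000213), by 0.77 with doxorubicin and with palbociclib, and by 0.48 to 0.62 with the others. The alisertib call of PFKP was lost with library totals alone (-0.36, adjusted p = 0.0791). PGK1 overlaps ATP7A and PGAM4, both in the table.

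With ND-646, the calls of PFKP, PGK1 and ENO1 rested on single libraries. Without day-0 replicate 2 their adjusted p were 0.0950, 0.0790 and 0.0603. Without day-0 replicate 3, PFKP (0.0687) and PGK1 (0.0634) were not called, and without ND-646 replicate 2 or 3, PGK1 (0.0819 and 0.0757) and ENO1 (0.0739 and 0.0697) were not called. Without ND-646 replicate 1 these 3 genes remained lower, at -0.52, -0.78 and -1.05. The calls of PKM and LDHA held in every fit that left out 1 library against day 0.

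Promoter windows of 5 members are shown because PGK1, ENO1, PKM and LDHA fell together while ALDOC rose in FASTIS and bleomycin cells. Each is the run of 250 bases before the gene's start in RefSeq on GRCh38.p14, written 5′ to 3′ on the gene's strand. Capitals mark ACGTG and GCGTG on either strand, the core letters bound by hypoxia-inducible factors.
LDHA, chr11:18394313-18394562, plus strand: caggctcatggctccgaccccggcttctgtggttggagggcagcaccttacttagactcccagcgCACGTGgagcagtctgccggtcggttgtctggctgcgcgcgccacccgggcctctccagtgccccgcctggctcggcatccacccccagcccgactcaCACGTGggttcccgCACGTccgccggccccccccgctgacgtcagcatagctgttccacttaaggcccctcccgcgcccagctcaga
PGK1, chrX:78103998-78104247, plus strand: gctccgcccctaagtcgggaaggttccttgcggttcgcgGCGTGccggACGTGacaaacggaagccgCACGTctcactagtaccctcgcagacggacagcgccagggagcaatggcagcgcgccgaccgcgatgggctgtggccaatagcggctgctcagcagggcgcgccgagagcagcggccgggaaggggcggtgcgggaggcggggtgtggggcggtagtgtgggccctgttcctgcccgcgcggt
ENO1, chr1:8878687-8878936, minus strand: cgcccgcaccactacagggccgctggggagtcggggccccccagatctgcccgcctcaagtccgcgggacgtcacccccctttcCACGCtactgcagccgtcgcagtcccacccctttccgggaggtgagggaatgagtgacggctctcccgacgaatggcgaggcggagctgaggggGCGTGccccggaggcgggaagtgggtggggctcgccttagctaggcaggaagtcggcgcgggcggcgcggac
PKM, chr15:72231191-72231440, minus strand: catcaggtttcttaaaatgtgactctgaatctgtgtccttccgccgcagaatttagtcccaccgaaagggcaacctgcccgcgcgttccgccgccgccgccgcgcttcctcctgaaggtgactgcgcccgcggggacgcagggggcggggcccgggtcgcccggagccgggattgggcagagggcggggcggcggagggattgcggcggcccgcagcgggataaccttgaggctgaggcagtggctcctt
ALDOC, chr17:28576896-28577145, minus strand: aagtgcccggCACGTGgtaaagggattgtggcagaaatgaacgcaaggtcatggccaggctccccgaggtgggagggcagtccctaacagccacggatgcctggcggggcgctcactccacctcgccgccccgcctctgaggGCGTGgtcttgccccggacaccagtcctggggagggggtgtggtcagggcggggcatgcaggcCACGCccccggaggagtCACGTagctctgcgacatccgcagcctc
One or more of these motifs occurred in the windows of 7 of 10 members, and in 43.1% of 27305 RefSeq promoter windows of the same length. LDHA and ALDOC had 5 matches each, HK2 and PGK1 3, ENO1 2, ALDOA and ENO2 1, and SLC2A1, PFKP and PKM 0. A CACGTG run counts as a match on both strands, so the 5 matches of LDHA lie at 3 places and those of ALDOC at 4. A match is a string of letters, and binding was not measured.

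SLC2A1 (NCBI gene 6513, chr1:43391024-43424564) encodes GLUT1, the basal glucose transporter at the cell surface. It was 541, 492 and 454 CPM in day-0 cells and 486, 412 and 424 in untreated day-7 cells. In ND-646 cells it was 943, 810.0 and 884 CPM, and in TVB-3166 cells 805, 695 and 746. The other 4 TIS groups held 491 to 598 CPM. FASTIS libraries were above all other libraries and ND-646 libraries above TVB-3166 libraries, while each of the other groups overlapped with the next in order. SLC2A1 rose by 0.81 ± 0.16 on the log2 scale with ND-646 (adjusted p = 0.00412) and by 0.60 ± 0.11 with TVB-3166 (adjusted p = 0.000841) against day 0. With bleomycin, alisertib, doxorubicin and palbociclib the log2 fold changes were 0.12 to 0.23 and not past the test. The palbociclib value (0.23, adjusted p = 0.0745) was called by DESeq2 (adjusted p = 0.0379), in the fit of all 24 libraries (0.0499) and without day-0 replicate 1 (0.31, adjusted p = 0.0163). With library totals alone in place of TMM scaling, alisertib (0.27), doxorubicin (0.28) and palbociclib (0.37) were called.

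HK2 (NCBI gene 3099, chr2:75061254-75120486) encodes the hexokinase that traps glucose in the cell and is bound to mitochondria. It was 189, 227 and 204 CPM in day-0 cells and 211, 197 and 183 in untreated day-7 cells. ND-646 libraries held 201, 274 and 264 CPM and TVB-3166 libraries 288, 302 and 319, and the other 4 TIS groups held 164 to 200.4. TVB-3166 libraries were above all others. HK2 rose by 0.55 ± 0.10 on the log2 scale with TVB-3166 (adjusted p = 0.000755). The ND-646 value of 0.24 ± 0.17 did not pass the test (adjusted p = 0.291), and without ND-646 replicate 1 it was 0.37 (adjusted p = 0.0181). In the remaining groups HK2 differed from day 0 by -0.20 to -0.10 and was not called, except with alisertib when day-0 replicate 1 was left out (-0.25, adjusted p = 0.0449).

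ALDOA (NCBI gene 226, chr16:30075485-30081778), the main aldolase of dividing cells, divided the drugs. It was 2173, 2068 and 1845 CPM in day-0 cells and 1424, 1112 and 1274 in untreated day-7 cells. ND-646 libraries held 3397, 1862 and 1966 CPM and TVB-3166 libraries 1999, 1643 and 1952. Bleomycin libraries held 1565, 1619 and 1312 CPM, alisertib libraries 1122, 1019 and 1165, doxorubicin libraries 969.9, 1071 and 888, and palbociclib libraries 1271, 1331 and 1174. FASTIS libraries were above every library of the other 4 TIS groups and above untreated day-7 libraries, and overlapped with day 0. Against day 0, ALDOA fell by 1.04 ± 0.12 on the log2 scale with doxorubicin (adjusted p = 0.000153), by 0.88 with alisertib, by 0.69 with palbociclib and by 0.43 ± 0.14 with bleomycin (adjusted p = 0.0274). The bleomycin call was lost without bleomycin replicate 3 (-0.34, adjusted p = 0.109) or day-0 replicate 2 (-0.42, adjusted p = 0.0848). With ND-646 the log2 fold change was 0.23 ± 0.26 (adjusted p = 0.507), and -0.09 without ND-646 replicate 1, so its direction rests on that library. With TVB-3166 it was -0.12 ± 0.13 (adjusted p = 0.451). Untreated day-7 cells were themselves lower than day-0 cells by 0.66 ± 0.12. Against these day-7 cells ALDOA was not called with bleomycin (0.25), alisertib (-0.19) or palbociclib (-0.01).

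ALDOC (NCBI gene 230, chr17:26900133-26903966), the brain-type aldolase, had the largest rise of the members against day 0 with either lipogenesis inhibitor. It was 50.9, 80.2 and 65.2 CPM in day-0 cells and 80.6, 91.3 and 84.4 in untreated day-7 cells. ND-646 libraries held 179.6, 109.5 and 119 CPM, TVB-3166 libraries 170.03, 125 and 137, and bleomycin libraries 95.1, 127 and 89.1. The alisertib, doxorubicin and palbociclib libraries held 59.8 to 82.8 CPM and overlapped with day 0. ALDOC rose by 1.04 ± 0.23 on the log2 scale with ND-646 (adjusted p = 0.00772), by 1.14 ± 0.16 with TVB-3166 (adjusted p = 0.000148) and by 0.67 ± 0.19 with bleomycin (adjusted p = 0.0144). Without ND-646 replicate 1 the ND-646 value was 0.80, and without bleomycin replicate 2 bleomycin was not called (0.49, adjusted p = 0.0516). The gene overlaps RSKR, which is also in the table, so some reads could belong to either.

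ENO2 (NCBI gene 2026, chr12:7022909-7032861), the neuronal enolase, was barely present. Its counts were 4, 8 and 13 in day-0 libraries, 19, 19 and 25 in untreated day-7 libraries and 2 to 32 in drug libraries, or 0.0633 to 0.943 CPM. Bleomycin libraries had 18, 16 and 21 counts and alisertib libraries 30, 32 and 23, and ENO2 was called higher there, by 1.26 ± 0.47 (adjusted p = 0.0472) and 1.62 ± 0.46 (adjusted p = 0.0200) on the log2 scale. The bleomycin call was lost under DESeq2 (adjusted p = 0.112), with library totals alone (0.0639), in the fit of all 24 libraries (0.0535) and without any of 5 libraries, which were the 3 bleomycin libraries and day-0 replicates 1 and 2 (adjusted p of 0.0740 to 0.134, lowest value 0.85). The alisertib call was lost without alisertib replicate 1 (1.45), alisertib replicate 2 (1.51) or day-0 replicate 2 (1.67). Doxorubicin gave 1.17 (adjusted p = 0.0659), called without day-0 replicate 3 (1.66, adjusted p = 0.0304). The filter removed ENO2 with ND-646, TVB-3166 and palbociclib, where the unfiltered values were 0.46, 0.24 and 0.49 (adjusted p of 0.522, 0.777 and 0.480). ENO2 overlaps LRRC23, also in the table.

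Time in culture was addressed by comparing both untreated groups. Cells at day 7 held less ALDOA than cells at day 0 by 0.66 ± 0.12 on the log2 scale (adjusted p = 0.0474), the 1 member called of 10, and 0 were higher by edgeR's quasi-likelihood test. Of all 13636 genes tested 0.587% were called (0.389% higher and 0.198% lower). By a fold of at least 2 and a raw p under 0.05, ENO2 was the 1 member counted, against 1.99% of all genes. At an unadjusted p under 0.05, 2 members were higher and 4 lower, and DESeq2 called 0 higher and 4 lower (ALDOA, ENO1, PKM and LDHA). LDHA was -0.51 ± 0.10 (adjusted p = 0.0589), PKM -0.44 ± 0.13 (0.0948), ENO1 -0.33 ± 0.12 (0.133) and PGK1 -0.20 ± 0.10 (0.266), while ENO2 was 1.22 ± 0.47 (0.159) and ALDOC 0.40 ± 0.15 (0.150). For 6 members the libraries of both days did not overlap, as for 29.7% of all genes: LDHA, PKM, ENO1 and ALDOA were lower and ALDOC and ENO2 higher at day 7. The ALDOA call was lost without day-0 replicate 2 (-0.65, adjusted p = 0.136) or 3 (-0.74, 0.0510) and without day-7 replicate 1 (-0.77, 0.0578), 2 (-0.58, 0.205) or 3 (-0.68, 0.178).

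Against untreated cells of the same day, the falls were smaller and the rise of SLC2A1 was larger. These untreated cells are not labelled as refed, unlike the drug groups, so drug and refeeding cannot be told apart in these comparisons. PFKP, PKM and LDHA were lower and SLC2A1 was higher in 6 of 6 drug groups. ND-646 raised 3 and lowered 3 of 10 members by edgeR's quasi-likelihood test, where 34.2% of 13704 genes were called (17.2% higher and 17.1% lower). TVB-3166 raised 4 and lowered 5, against 51.5% of all genes (25.4% higher, 26.1% lower), and bleomycin raised 1 and lowered 5, against 45.6% (22.4% higher, 23.2% lower). Alisertib raised 1 and lowered 5, against 19.0% (9.55% higher, 9.49% lower). Doxorubicin raised 1 and lowered 7, against 43.4% (21.9% higher, 21.5% lower), and palbociclib raised 1 and lowered 5, against 44.8% (22.0% higher, 22.9% lower). By a fold of at least 2 and a raw p under 0.05, 1 member (LDHA) was counted with palbociclib (11.2% of all genes) and 0 with ND-646 (17.4%), TVB-3166 (13.4%), bleomycin (14.1%), alisertib (3.27%) and doxorubicin (8.77%). The median log2 fold change of the members was -0.48 (palbociclib) to -0.25 (alisertib), against 0.00 to 0.02 for all genes. With library totals alone the median of all genes moved to -0.20 with ND-646, where 2 members were then higher and 5 lower, and to -0.13 with bleomycin, where 0 were higher and 6 lower. These comparisons share the 3 untreated day-7 libraries.

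LDHA fell against untreated day-7 cells by 1.03 ± 0.09 on the log2 scale with palbociclib (adjusted p = 9.85e-06), by 0.81 ± 0.13 with bleomycin and by 0.47 to 0.61 with the others. PKM fell by 0.95 ± 0.17 with ND-646 (adjusted p = 0.00339) and by 0.85 ± 0.12 with TVB-3166, against 0.34 to 0.66 elsewhere. PFKP fell by 0.45 to 0.78. SLC2A1 rose by 0.99 ± 0.14 with ND-646 (adjusted p = 0.00131), by 0.77 ± 0.09 with TVB-3166 (adjusted p = 6.01e-05), and by 0.30 (bleomycin), 0.32 (alisertib), 0.35 (doxorubicin) and 0.41 (palbociclib). ALDOA rose by 0.91 ± 0.25 with ND-646 (adjusted p = 0.0238, and 0.58 without replicate 1) and by 0.56 ± 0.11 with TVB-3166, and fell by 0.36 ± 0.11 with doxorubicin. It was not called with bleomycin, alisertib or palbociclib. ALDOC rose by 0.66 ± 0.19 with ND-646 (0.41 without replicate 1) and by 0.76 ± 0.11 with TVB-3166, and HK2 rose by 0.62 ± 0.08 with TVB-3166 (adjusted p = 0.000102). PGK1 and ENO1 fell in 5 of 6 groups, with ND-646 as the exception (-0.42 and -0.50, adjusted p = 0.0773 and 0.0771), and both were called lower there without ND-646 replicate 1 (-0.57 and -0.71).

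Several day-7 calls depended on single libraries. With ND-646, ALDOA, ALDOC and LDHA were not called without any 1 of the untreated day-7 libraries, at adjusted p of 0.0585 to 0.0959, 0.0707 to 0.108 and 0.0688 to 0.117, and LDHA was not called without ND-646 replicate 2 (-0.52) or 3 (-0.53). The SLC2A1 rises with bleomycin and alisertib were lost without untreated day-7 replicate 2 (0.25 and 0.26) or 3 (0.27 and 0.29) and without bleomycin replicate 1 (0.24) or 2 (0.28) or alisertib replicate 1 (0.28) or 3 (0.31). PFKP with ND-646 was not called without untreated day-7 replicate 3 (-0.56), nor PGK1 with TVB-3166 without day-7 replicate 1 (-0.26) or TVB-3166 replicate 3 (-0.28). ENO1 with bleomycin was lost without bleomycin replicate 2 (-0.31) or 3 (-0.42) or day-7 replicate 1 (-0.40) or 3 (-0.43).

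With alisertib, PGK1 was lost without any 1 of the alisertib libraries or day-7 replicate 1 or 3 (-0.33 to -0.23), PKM without alisertib replicate 2 or 3 or day-7 replicate 1 or 3 (-0.42 to -0.30), and ENO1 without replicate 3 of either group (-0.33 and -0.35). With doxorubicin, ALDOA and PKM were lost without doxorubicin replicate 1 or 3 or day-7 replicate 1 or 3 (-0.37 to -0.27 and -0.37 to -0.23). ALDOC, lower with doxorubicin, was lost without doxorubicin replicate 1 or 3 or day-7 replicate 2 or 3 (-0.33 to -0.23), and SLC2A1 without doxorubicin replicate 1 or day-7 replicate 3 (both 0.31). HK2 with ND-646 was called without ND-646 replicate 1 (0.44). ALDOC was called without bleomycin replicate 3 (0.38), with alisertib without day-7 replicate 1 (-0.26) and with palbociclib without its replicate 2 (-0.30), and ENO2 was called lower without TVB-3166 replicate 1 (-1.75) or palbociclib replicate 2 (-1.32). Same-numbered libraries deviated together in the bleomycin and alisertib comparisons with day 7, and with the replicate number as a block ALDOC was called there, at 0.28 (adjusted p = 0.0490) and -0.22 (adjusted p = 0.0347). The labels do not say that this number marks a batch, and without the block ALDOC was not called there.

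ND-646 and TVB-3166 cells were then set against each other. Of 9 members tested 0 were called by edgeR's quasi-likelihood test, 0 had an unadjusted p under 0.05 and DESeq2 called 0, where 0.717% of 13662 genes were called (0.520% higher and 0.198% lower) and 3.14% passed a fold of at least 2 and a raw p under 0.05, as 0 members did. The largest differences, TVB-3166 minus ND-646, were ALDOA at -0.36 ± 0.25, HK2 at 0.31 ± 0.15 and SLC2A1 at -0.22 ± 0.13 on the log2 scale, and the others lay between -0.18 and 0.13. With errors of this size, differences of several SE can go uncalled, so differences larger than these are not excluded. Without ND-646 replicate 1, PFKP was called lower with TVB-3166 (-0.28, adjusted p = 0.0395) and ALDOA was -0.03.

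FASTIS cells were compared with the other TIS cells by the mean of ND-646 and TVB-3166 against the mean of bleomycin, alisertib, doxorubicin and palbociclib, in 1 fit of all 24 libraries. Of 10 members 5 were higher (SLC2A1, HK2, ALDOA, ALDOC and LDHA) and 1 lower (PKM) in FASTIS cells, where 51.0% of 14078 genes were called (26.3% higher and 24.7% lower). With library totals alone, which moved the median of all genes to -0.13, 4 were higher and 3 lower, ENO1 (-0.19) and ENO2 (-0.92) among the latter. None of the members reached a fold of at least 2 with a raw p under 0.05, as 7.10% of all genes did. ALDOC was higher by 0.84 ± 0.11 on the log2 scale (adjusted p = 1.41e-06), ALDOA by 0.83 ± 0.10 (6.5e-07), HK2 by 0.56 ± 0.07 (3.39e-07) and SLC2A1 by 0.55 ± 0.06 (1.19e-07). For 3 members, SLC2A1, HK2 and ALDOA, the 6 FASTIS libraries lay above the 12 others, where 7.05% of all genes did not overlap in either direction. For HK2 this was nearly a tie, with 201.2 CPM in ND-646 replicate 1 and 200.4 in palbociclib replicate 2. With library totals alone, HK2 in ND-646 replicate 1 (158 CPM) was below all 12 others, the lowest of which held 165 CPM. PKM was lower by 0.42 ± 0.08 (adjusted p = 0.000186). Without ND-646 replicate 1, ALDOC was 0.71, ALDOA 0.66, HK2 0.62, SLC2A1 0.52 and PKM -0.47, and ENO2 was then called lower (-0.95, adjusted p = 0.0379).

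LDHA was higher by 0.22 ± 0.08 (adjusted p = 0.0337), and this call was lost with library totals alone (0.06) and without ND-646 replicate 1 (0.11), TVB-3166 replicate 1 (0.18) or 2 (0.22), alisertib replicate 3 (0.21), bleomycin replicate 2 (0.19), doxorubicin replicate 3 (0.20), palbociclib replicate 3 (0.20), the TVB-3166 group (0.16), the bleomycin group (0.20) or the palbociclib group (0.13). PFKP (-0.07 ± 0.07), PGK1 (0.11 ± 0.07), ENO1 (-0.03 ± 0.09) and ENO2 (-0.77 ± 0.34) did not pass the test. ENO2 was also called lower without TVB-3166 replicate 1 (-1.16), alisertib replicate 3 (-0.83) or palbociclib replicate 1 (-0.85), or without the palbociclib group (-0.97).

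**Figure D1:**
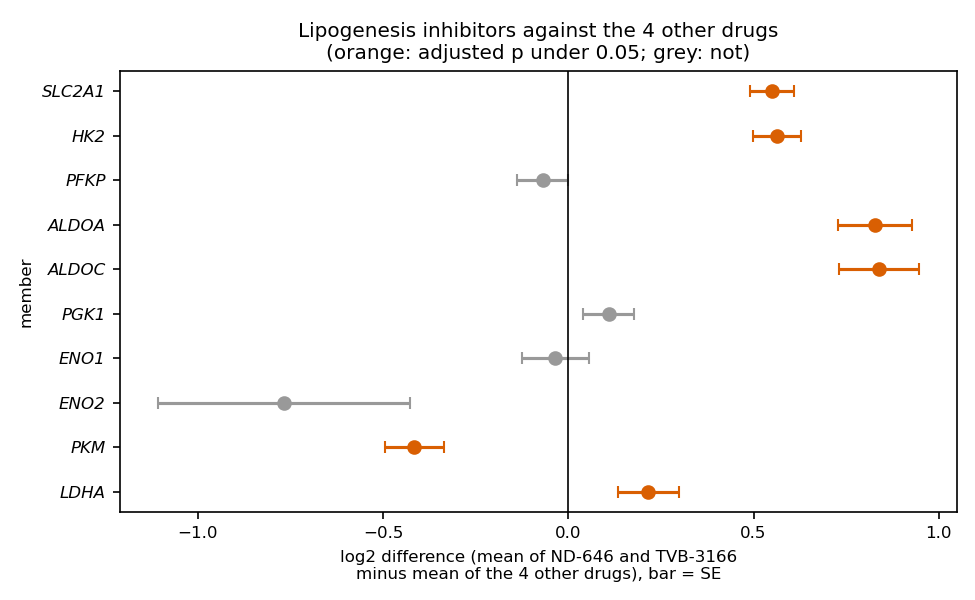
Log2 difference of each member between FASTIS cells (mean of ND-646 and TVB-3166) and the mean of bleomycin, alisertib, doxorubicin and palbociclib, with the SE from 1 edgeR fit of 24 libraries. Orange points had an adjusted p under 0.05. SLC2A1, HK2, ALDOA and ALDOC lie at 0.55 to 0.84, LDHA at 0.22 and PKM at -0.42.

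Sister enzymes shifted against each other. LDHB encodes the lactate dehydrogenase subunit that favors the reverse reaction, and it fell against day 0 in 6 of 6 drug groups. The fall was 1.21 ± 0.10 on the log2 scale with TVB-3166 (adjusted p = 4.71e-06), 0.78 ± 0.22 with ND-646, 0.61 with bleomycin, 0.55 with doxorubicin, 0.42 with alisertib and 0.38 ± 0.10 with palbociclib (adjusted p = 0.00751). The log2 ratio of LDHA to LDHB was 1.93 ± 0.04 (SD, n = 3) in day-0 cells and 1.54 ± 0.14 in untreated day-7 cells. It was 2.15 ± 0.03 in TVB-3166 cells, 1.61 ± 0.15 in ND-646 cells, 1.205 to 1.36 in bleomycin, alisertib and doxorubicin cells and 0.76 ± 0.01 in palbociclib cells. TVB-3166 libraries were above and palbociclib libraries below all others. The ratio of ALDOC to ALDOA rose from -4.98 ± 0.39 in day-0 cells to between -4.12 and -3.70 in the 6 drug groups, and untreated day-7 cells, at -3.89 ± 0.27, lay within that range. HK1 is the housekeeping hexokinase, and the ratio of HK2 to HK1 was -2.16 ± 0.24 in day-0 cells, -1.94 ± 0.07 in untreated day-7 cells, -1.53 ± 0.34 in ND-646 cells and -1.32 ± 0.11 in TVB-3166 cells. Doxorubicin (-1.59 ± 0.09) and palbociclib cells (-1.62 ± 0.09) overlapped with ND-646 cells, and the ratio was -1.83 ± 0.19 in bleomycin and -1.96 ± 0.07 in alisertib cells. These ratios are descriptions, with 3 libraries a group, for which an exact permutation test cannot go below p = 0.1.

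**Figure D2:**
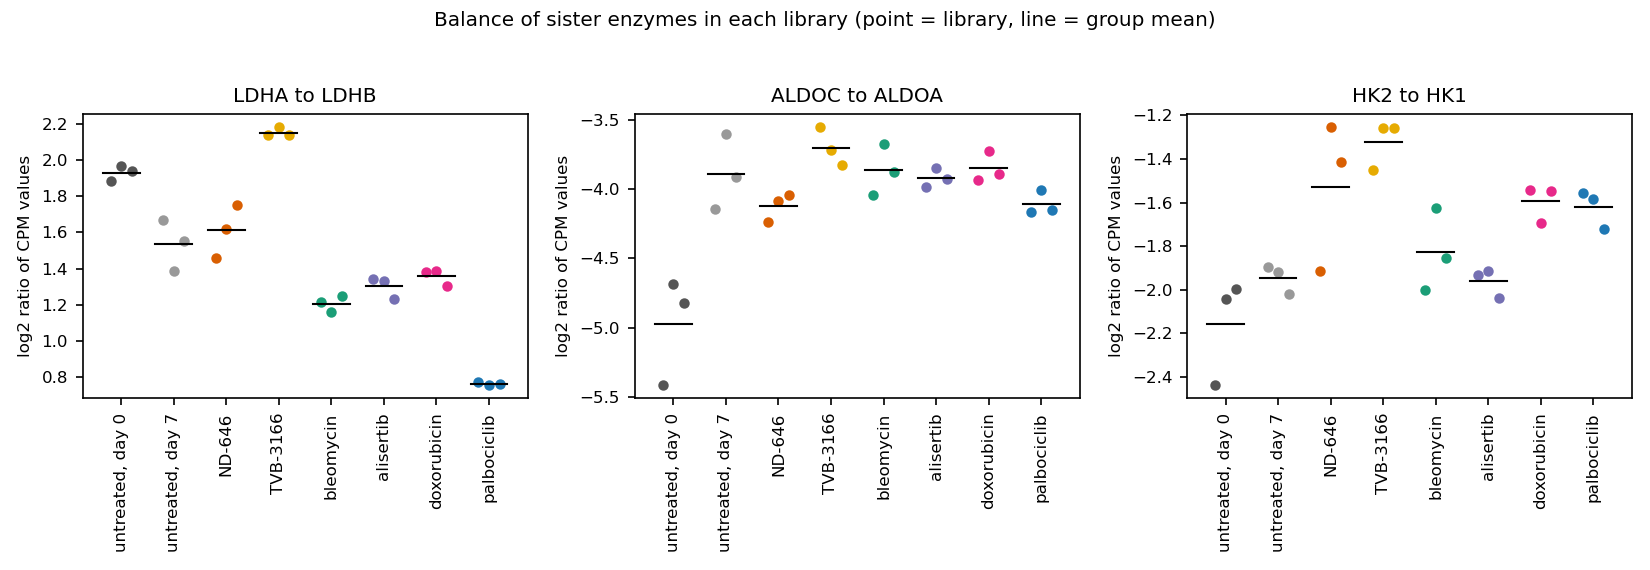
Log2 ratio of CPM values of LDHA to LDHB, ALDOC to ALDOA and HK2 to HK1 in each library, with the mean of each group as a line. The LDHA to LDHB ratio is highest in TVB-3166 cells (2.15) and lowest in palbociclib cells (0.76).

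The pathway steps outside the members were read from a list of 21 genes, of which 13 were in the table. Against day 0, 0 and 9 of the 13 were called higher and lower with ND-646, 1 and 8 with TVB-3166, 0 and 7 with bleomycin, 0 and 8 with alisertib, 0 and 8 with doxorubicin and 2 and 7 with palbociclib, where 17.7% to 27.4% of all genes were called higher and 18.8% to 27.7% lower in these comparisons. GAPDH, which follows aldolase in the pathway, fell from 6076 CPM to group means of 2167 to 2690, or by 1.16 to 1.48 on the log2 scale, and by 0.70 ± 0.13 in untreated day-7 cells (adjusted p = 0.0474). TPI1, which interconverts the 2 aldolase products, fell by 0.94 with ND-646 and by 1.03 to 1.21 in the other 5 drug groups. PGAM1, the mutase before enolase, fell by 0.78 (palbociclib) to 1.15 (ND-646) in the 6 drug groups, and GPI, which converts glucose phosphate to fructose phosphate, by 0.72 (alisertib) to 1.04 (ND-646).

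Genes that govern entry, exit and branch points moved unequally. Of 10 listed transporters outside the members 3 rose and 2 fell with ND-646 (19.1% and 18.8% of all genes) and 4 rose and 2 fell with TVB-3166 (27.4% and 27.7%), and 2 to 5 rose and 1 to 2 fell in the other 4 groups. SLC2A10, a glucose transporter of internal membranes, rose by 2.30 ± 0.30 and 2.24 ± 0.24, and by 1.53 with bleomycin, 1.077 with doxorubicin, 1.04 with alisertib and 0.83 with palbociclib. In untreated day-7 cells SLC2A10 was 0.82 (adjusted p = 0.117). Against these cells it rose by 1.49 with ND-646, 1.43 with TVB-3166 and 0.72 with bleomycin. It was not called there with alisertib, doxorubicin or palbociclib (0.03 to 0.28). SLC16A1, which carries lactate across the membrane, fell by 0.93 ± 0.16 with ND-646 and 1.48 ± 0.14 with TVB-3166, and rose by 0.70 with doxorubicin, 0.57 with palbociclib and 0.49 with bleomycin. In untreated day-7 cells it was 0.50 (adjusted p = 0.0595), and against these cells SLC16A1 was not called with bleomycin, doxorubicin or palbociclib (0.02 to 0.23). With alisertib SLC16A1 was not called against day 0 (-0.04) but was called lower against untreated day-7 cells (-0.51, adjusted p = 0.00696). The values against untreated day-7 cells were -1.42 with ND-646 and -1.97 with TVB-3166. FASTIS cells held less SLC16A1 than the other TIS cells by 1.63 ± 0.10 on the log2 scale (adjusted p = 2.89e-11), at group means of 14.3 and 9.69 CPM against 27.2 in day-0 cells. SLC16A3, also a listed lactate transporter, rose against day 0 by 0.93 ± 0.20 with ND-646, 0.43 ± 0.13 with TVB-3166 and 0.56 ± 0.16 with bleomycin. FASTIS cells held more SLC16A3 than the other TIS cells by 0.54 ± 0.09 (adjusted p = 2.17e-05), at 391 and 272 CPM against 203 in day-0 cells. Against untreated day-7 cells SLC16A3 was called with ND-646 (0.70) and not with TVB-3166 (0.19). Among 17 regulators, 8 to 11 rose and 0 to 3 fell in each drug group, against 17.7% to 27.4% and 18.8% to 27.7% of all genes. TXNIP, which restrains glucose uptake, rose in 6 of 6 groups, from 124 CPM to 754 with ND-646 and 793 with TVB-3166, and by 1.59 to 2.68 on the log2 scale, and its relative ARRDC4 rose by 1.04 (bleomycin) to 1.91 (ND-646) in the 6 groups, with palbociclib at 1.81 and TVB-3166 at 1.71.

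Of 19 listed hypoxia-response genes outside glycolysis, 7 (alisertib) to 13 (bleomycin) rose and 1 to 4 fell against day 0, where 17.7% (alisertib) and 24.1% (bleomycin) of all genes rose and 18.8% to 27.7% fell in the 6 comparisons. VEGFA, an angiogenic factor, rose by 1.89 with ND-646, 1.65 with TVB-3166 and 0.67 to 1.12 in the other 4 groups. DDIT4, an inhibitor of mTORC1, rose by 3.00 and 2.60, and by 2.59 with palbociclib and 1.05 to 1.94 with the other 3 drugs. ANGPTL4, an inhibitor of lipoprotein lipase that is also induced by PPAR receptors, changed by -4.68 with ND-646 and -4.85 with TVB-3166 on the log2 scale, and was not called in the other 4 groups (-0.27 to 0.65). Of 4 gluconeogenesis enzymes in the table, PCK2, the mitochondrial phosphoenolpyruvate carboxykinase, rose by 2.16 ± 0.21 with ND-646 and 1.68 ± 0.11 with TVB-3166 and by 1.02 ± 0.15 with bleomycin (adjusted p = 0.000571), and pyruvate carboxylase (PC) fell by 1.83 with ND-646 and 1.44 with TVB-3166 and by 0.27 to 0.95 in the other 4 groups. FBP1 was called lower in these other 4 groups (-1.28 with doxorubicin to -0.39 with alisertib) and not with ND-646 (-0.53) or TVB-3166 (0.05). G6PC3 was called lower with TVB-3166, bleomycin, doxorubicin and palbociclib (-0.62 to -0.32) and not with ND-646 (-0.43) or alisertib (-0.11).

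Across the 8 group means, the members fell into sets that moved alike. Pearson correlations of log2 CPM were 0.97 for PGK1 with LDHA, 0.96 for ENO1 with LDHA, 0.92 for PGK1 with ENO1 and 0.91 for PFKP with ENO1. SLC2A1 correlated with ALDOC at 0.75 and with HK2 at 0.71, and with PKM at -0.78. The genes outside the list most like the mean of the members were VPS25, PPP1CA, COX7A2, PPP1R7 and ZDHHC12, at 0.98 to 0.99. They were picked as the highest of all genes over 8 points, so high values were bound to be found. That mean also joins members that moved in opposite directions. All these correlations are descriptions over 8 points that share library preparation and TMM scaling.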

How the data were processed

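SKBR3 RNA was sequenced in 24 libraries. The labels name a stranded mRNA kit and the paper's methods a stranded total RNA kit. The authors used HISAT2 (alignment, GRCh37) and StringTie, and the table they deposited holds raw counts for each gene as whole numbers. Counting settings, strand use included, are not given in the sources used here. The lowest deposited count is 1, so a gene at 0 in any library is not listed. The members and gene lists were chosen with earlier results of these data known.

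Each pair of groups was fitted with edgeR 4.0.16 in R 4.3.3 (quasi-likelihood test, 2-sided, filterByExpr, TMM), without a term for the replicate number, and FASTIS cells were contrasted with the other TIS cells in a fit of 24 libraries. Calls are adjusted p-values under 0.05 by Benjamini-Hochberg over all genes tested, and ± on a log2 fold change is its SE. On simulated counts for TVB-3166 against day 0 (13686 genes), 75 of 100 genes changed by 1 on the log2 scale and 99 of 100 changed by 2 were recovered. Log2 CPM used a prior count of 2. DESeq2 1.42.0, other scalings and filters, and leaving out each library were alternatives. Same-numbered libraries deviated together, with 3 of 3 correlations over 0.1, in TVB-3166 against ND-646 (0.213 to 0.380), bleomycin against day 7 (0.107 to 0.142) and alisertib against day 7 (0.105 to 0.218). The labels do not say that the number marks a batch or a pair, and these correlations come from the same data. The fit with the number as a block is therefore an alternative. The named genes were all 10 members and, from each further list, up to 3 called genes a comparison with the largest change and no overlap, plus GAPDH, HK1 and LDHB. The results of 1 further list are not reported here. Positions are from GENCODE on GRCh37 and promoters from RefSeq on GRCh38.p14. LDHA, PKM and ENO1 have 6, 5 and 4 named pseudogenes that could share reads.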

Additional observations from a re-analysis of the deposited data

Results flagged for a closer look

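For 6 members, the effect of the lipogenesis inhibitors differed from the effect of the other 4 drugs in the test of that difference itself, the contrast of FASTIS cells with the other TIS cells in the edgeR fit of 24 libraries. The log2 difference was 0.84 for ALDOC, 0.83 for ALDOA, 0.56 for HK2, 0.55 for SLC2A1, 0.22 for LDHA and -0.42 for PKM. SLC2A1, HK2, ALDOA, ALDOC and PKM were past the threshold without any 1 of the 24 libraries, and LDHA was not.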

How the results depend on the processing

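Of 146 combinations of member and comparison 90 were called, and 66 of these were called without any 1 library. Leaving out single libraries ended a call 83 times, in the other 24. Some setting changed the sign in 14 combinations, 0 of them called. With RLE size factors every call was kept. With library totals alone the median of all genes was -0.20 for ND-646 and -0.13 for bleomycin against day 7, 0.10 to 0.13 for alisertib, doxorubicin, palbociclib and untreated day 7 against day 0, 0.12 for TVB-3166 against ND-646 and -0.13 in the FASTIS contrast, and changes there are relative to it. Summed member levels were then 6860 CPM with alisertib and 6172 with palbociclib. ENO2, with 2 to 32 counts, is limited by depth.

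A fold of at least 2 with a raw p under 0.05 gave 3 members with ND-646, bleomycin or doxorubicin and 2 with TVB-3166, palbociclib or alisertib against day 0, and against day 7 it gave 1 (palbociclib) and 0 in the other 5, as in the FASTIS contrast (0). For untreated day 7 against day 0 the main count of 1 became 4 with DESeq2, 0 with library totals alone, 0 without the filter and 2 in the fit of 24 libraries, and alisertib against day 7 became 3 in that fit without SLC2A1, PGK1 and ENO1. The cause was not tested.

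Leaving out 1 library gave 4 to 8 members called for ND-646 against day 0 (4 without day-0 replicate 2), 2 to 9 for ND-646 against day 7 (2 or 3 without any day-7 library), 0 to 1 for untreated day 7 against day 0, 2 to 5 for alisertib against day 7 (2 without alisertib or day-7 replicate 3), 4 to 8 for doxorubicin against day 7 (4 without doxorubicin replicate 1 or day-7 replicate 3) and 0 to 1 for TVB-3166 against ND-646 (1 without ND-646 replicate 1). The uncalled values that changed sign ranged from -0.090 to 0.38 for ALDOA (ND-646, day 0), -0.094 to 0.24 for ALDOC (doxorubicin, day 0), -0.13 to 0.017 for HK2 and -0.13 to 0.11 for PFKP (untreated days), -0.13 to 0.29 for ENO2 (bleomycin, day 7), -0.087 to 0.031 for HK2 and -0.30 to 0.19 for ENO2 (doxorubicin, day 7), -0.096 to 0.091 for ALDOA and -0.11 to 0.0030 for HK2 (palbociclib, day 7), -0.14 to 0.17 for ENO1 and -0.044 to 0.34 for ALDOC (TVB-3166 against ND-646), and -0.14 to 0.017 for ENO1 (FASTIS contrast).

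With library totals alone, HK2 (0.031) and PFKP (0.080) between untreated days, ENO2 with bleomycin (-0.063) and ALDOA with palbociclib (0.011) against day 7, ENO1 in TVB-3166 against ND-646 (0.12) and PGK1 in the FASTIS contrast (-0.045) changed sign, all uncalled, as did PFKP without the TVB-3166 group (0.025) and ENO1 without the alisertib group (0.0061) in that contrast. With a replicate block, 4 members were called between untreated days (ALDOA, ALDOC at 0.42, PKM at -0.45 and LDHA at -0.51), PFKP there was 0.0066, ALDOA with palbociclib against day 7 was 0.00024, and ENO2 with doxorubicin against day 0 (1.21) and ALDOC with palbociclib against day 7 (-0.22) were called. The block changed no other call beside those of ALDOC given with the day-7 comparisons. TVB-3166 against ND-646 and bleomycin and alisertib against day 7 had all 3 same-number correlations over 0.1. In the other comparisons of 2 groups, at least 1 was under 0.1.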

Other observations

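GAPDH, PPIA and GUSB, the reference genes of the array plate with which the study checked its RNA-seq results by RT-qPCR, were read after their values were seen, since GAPDH is a glycolysis enzyme. GAPDH fell by 1.16 to 1.48 on the log2 scale against day 0 in 6 of 6 drug groups. PPIA, a peptidyl-prolyl isomerase, changed by -0.86 to -0.50 and was called in 5 groups, with ND-646 as the exception (-0.63 ± 0.27, adjusted p = 0.0946). GUSB, the lysosomal beta-glucuronidase, was called lower with palbociclib (-0.47 ± 0.08, adjusted p = 0.000916), and lay between -0.18 and -0.06 in the other 5 groups. GAPDH alone took 0.554% to 0.607% of counts in day-0 libraries and 0.166% to 0.297% in drug libraries.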
